A study of Chamaelirium luteum with 2 samples.

Results

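Accessible intervals of at least 1000 bp form a small class of the open chromatin mapped in leaf nuclei of *Chamaelirium luteum*. Members were the peaks on scaffolds 1 to 22 that were at least 1000 bp wide and overlapped a peak of the other library by at least 1 bp, each interval being counted once. The rule gave 1002 wide regions of 39233 peaks in replicate 1 and 1053 of 41385 peaks in replicate 2. Joining wide regions of the libraries that overlapped by at least 1 bp gave 1338 wide loci. The members were selected on their width, so that width and every measure from the same reads (height, background, place of the summit) are given as a description, without a test.

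The data came from 2 ATAC-seq libraries of fresh *Cha. luteum* leaf tissue under 1 condition, each from about 75000 nuclei, and no genotype, treatment or time point separated them. Of the 22 large scaffolds of the assembly, 8 have a listed centromere, bound by the centromeric histone CENH3. The scaffolds outnumber the chromosomes of the haploid set. A scaffold end is thus not always a chromosome end, and a scaffold without a listed centromere can be a piece of a chromosome. The study sampled several plants of 1 greenhouse for its sequencing, but which plants gave these libraries is not stated, so the SD between libraries (n = 2 throughout) may be technical. The code in the title of replicate 2 differs from the code in its deposited peak names, and each library is called here by its label. No sequence is shown and no region is placed in a gene, exon or promoter, because no genome or annotation of this assembly was used here.

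In ATAC-seq, the Tn5 transposase inserts sequencing adapters where DNA is free of nucleosomes, so that fragments pile up over active promoters and other regulatory DNA. A peak caller then marks the stretch over which the pile-up exceeds the local background, and the position of the highest pile-up within it is the summit. A wide call can therefore span a single long opening or several neighbouring openings that were joined. *Cha. luteum* carries macro-monocentromeres, single but very large centromeres built from satellite arrays, and reads that mapped to several places had been removed before the peaks were called.

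On the 22 scaffolds, 31696 peaks of replicate 1 and 31698 of replicate 2 overlapped a peak of the other library. These are called shared peaks. Wide regions made up 3.16% of the shared peaks in replicate 1 and 3.32% in replicate 2 (3.24% ± 0.114, SD, n = 2), and the others, 30694 and 30645, are the narrower peaks used for comparison. By length, wide regions took 8.18% and 8.42% of all sequence within shared peaks, a covered length of 1200.7 kb in replicate 1 and 1257.13 kb in replicate 2. The requirement of an overlap removed 1 interval of 1003 in replicate 1 and 2 of 1055 in replicate 2. Narrower peaks overlapped the other library in 81.7% and 77.3% of cases, although a wider interval is also the larger target.

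Most wide regions lay close to the limit of 1000 bp. Their median width was 1141 bp in replicate 1 and 1140 bp in replicate 2, against 402 and 410 bp for narrower shared peaks. Intervals of 1 to 1.1 kb numbered 373 (37.2%) and 419 (39.8%). At the other end, 70 (6.99%) and 79 (7.5%) regions reached 1.5 kb, and 4 and 5 reached 2 kb. Intervals on either side of the limit had overlapping values. Just inside it in replicate 1, an interval of 1000 bp on scaffold 2 (26150250 to 26151249) held 102 fragments at its summit and was 1030 bp wide in replicate 2, and one on scaffold 4 (7593706 to 7594705) held 64 fragments and was 984 bp wide there. Just outside it, 2 intervals that fell short by 1 bp on scaffold 14 (1582713 to 1583711 and 15141412 to 15142410) held 116 and 150 fragments and were 1080 and 983 bp wide in replicate 2. In replicate 2, the intervals of 1000 bp on scaffold 2 (22472336 to 22473335) and scaffold 8 (1758745 to 1759744) held 120 and 24 fragments and were 996 and 290 bp wide in replicate 1. Those short of the limit by 1 bp on scaffold 3 (48159654 to 48160652) and scaffold 8 (31406463 to 31407461) held 67 and 83 fragments and were 1113 and 921 bp wide in replicate 1.

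The same loci tended to be wide in both libraries. A wide region of replicate 1 lay over a wide region of replicate 2 in 71.6% of cases, and the reverse held for 68.1% (69.8% ± 2.45). Peaks of 0.75 to 1 kb (from 750 bp up to the limit) lay over a wide region of the other library in 7.69% and 6.57% of cases, and all narrower peaks in 1.45% and 1.28%. The share grew with width: it was 56.3% and 50.6% for regions of 1 to 1.1 kb, 77.0% and 75% for those of 1.1 to 1.25 kb, 83.8% and 83.6% for those of 1.25 to 1.5 kb, and 87.1% and 88.6% for those of 1.5 kb or more. The median width in the library that had not chosen the region was 1101.5 bp for the regions of replicate 1 and 1090 bp for those of replicate 2.

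Of the 1338 loci, 717 (53.6%) were at least 1000 bp wide in both libraries, 285 only in replicate 1 and 336 only in replicate 2. Loci wide in both differed between libraries by a median of 41 bp, and 582 of them (81.2%) by 100 bp or less. Across these 717 loci the widths of the libraries had a Spearman correlation of 0.80, and across all 1338 loci the fragments at the summit had one of 0.95. In the 621 loci that were wide in 1 library, the other library had a peak with a median width of 819 bp (quartiles 606 and 937 bp). Of these, 218 measured at least 0.9 kb in the other library and 90 (14.5%) under 0.5 kb, the smallest 181 bp. The median number of fragments, averaged over the libraries, was 94 in loci wide in both and 60 in loci wide in 1.

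**Figure D1:**
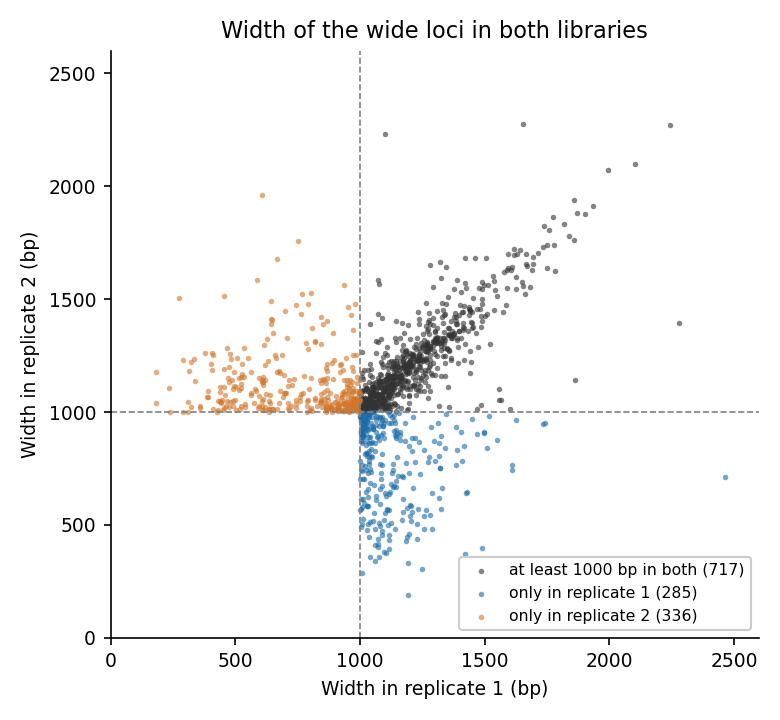
Width of the 1338 wide loci in replicate 1 (horizontal axis, bp) and replicate 2 (vertical axis, bp), 1 point per locus, with dashed lines at 1000 bp. The 717 loci that were wide in both libraries cluster along the diagonal, while the 285 and 336 loci that were wide in 1 library are spread from just under 1000 bp down to 181 bp in the other.

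The widest locus lay on scaffold 5 (37562889 to 37565163), on the right arm 11.4 Mb from the centromere. It measured 2242 bp in replicate 1 and 2271 bp in replicate 2, with 109 and 123 fragments at its summit. Next came loci on scaffold 9 (22698135 to 22700236, 2102 and 2098 bp, 124 and 117 fragments), scaffold 2 (10396985 to 10399055, 1994 and 2071 bp, 78 and 88 fragments), scaffold 11 (9977150 to 9979424, 1652 and 2275 bp, 98 and 95 fragments) and scaffold 12 (15522729 to 15524661, 1933 and 1914 bp, 181 and 247 fragments). None of these 5 stood out in fold enrichment, the ratio of fragments at the summit to the local background with 1 added to both: their values lay between 5.57 and 6.70 in replicate 1, and between 5.63 and 7.13 in replicate 2. Between 18.9% and 43.0% of the wide regions of a library had a lower fold. The widest single interval, chosen after its values were seen, measured 2464 bp on scaffold 18 (2697034 to 2699497) in replicate 1, but 713 bp in replicate 2, with 34 and 33 fragments.

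The deposited lists gave a single summit for every interval, and no interval occurred more than once in either library. The number of peaks of the other library beneath a wide region therefore served as a measure of how often a wide call covered separate calls. In replicate 1, 898 wide regions lay over 1 peak of replicate 2, 102 over 2 peaks and 2 over 3. In replicate 2 the numbers were 946, 106 and 1. Wide regions thus covered at least 2 peaks in 10.4% and 10.2% of cases, compared with 3.46% and 3.36% of peaks of 0.75 to 1 kb and 0.472% and 0.460% of all narrower peaks, a share that interval length alone can raise. Wide regions over several peaks were lower, with a median fold of 5.51 and 6.37 against 7.25 and 7.70 for those over 1 peak.

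Summits of wide regions were less central than those of narrower peaks. In wide regions their median distance from the middle was 43.1% of the way to the edge in replicate 1 and 41.8% in replicate 2 (247 and 241 bp). The corresponding values were 32.2% and 33.0% for peaks of 0.75 to 1 kb and 23.3% and 22.7% for all narrower peaks. Most wide regions, 60.6% and 62.2%, still had the summit closer to the middle than to the nearest edge. This share was 75.7% and 75.1% for peaks of 0.75 to 1 kb, and 85.6% and 86.3% for all narrower peaks. With each interval divided into 10 equal parts, summits of wide regions were commonest in the third part (14.9% ± 0.247) and the eighth (15.7% ± 1.38), and less common in the 2 middle parts (10.9% and 11.6%). Summits of narrower peaks concentrated in the 2 middle parts (22.2% in each), and those of peaks of 0.75 to 1 kb were spread almost evenly from the fourth to the seventh. Neither side was favoured, with 48.7% and 49.4% of the wide regions having the summit left of the centre.

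**Figure D2:**
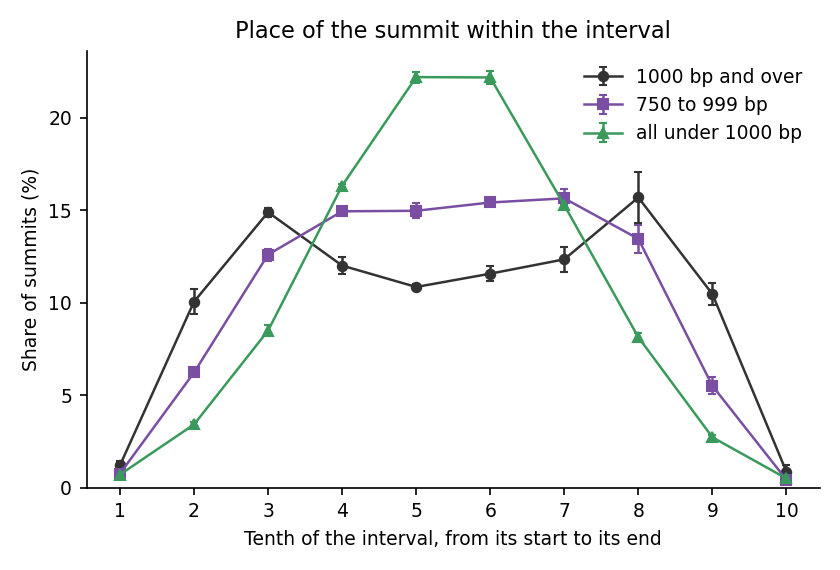
Share of summits (vertical axis, %) in each of 10 equal parts of the interval from start to end (horizontal axis), for wide regions, peaks of 0.75 to 1 kb and all peaks under 1000 bp; points are means and bars the SD of the 2 libraries. Wide regions show a hump in the third and another in the eighth part (14.9% and 15.7%) with a dip to 10.9% between them, where narrower peaks have their maximum of 22.2%.

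The libraries also placed the summit apart more often in wide regions than in narrower peaks. The median distance between the summits of the libraries was 54 and 57 bp, against 52 and 49 bp for peaks of 0.75 to 1 kb and 38 bp for all narrower peaks in both libraries. Summits over 250 bp apart occurred in 15.8% and 15.6% of wide regions, 9.30% and 9.94% of peaks of 0.75 to 1 kb and 4.21% and 4.25% of narrower peaks. The room for such a shift grows with the interval. Among the 717 loci wide in both libraries, 106 (14.8%) had summits over 250 bp apart, the largest distance being 1200 bp, and 47.3% had them within 50 bp.

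Wide regions had more fragments at the summit than narrower peaks, and also lay in a higher local background. Fragments here are units of the pile-up at the summit, and whether the caller counted pairs or single reads is not given. The number of fragments at a summit was solved from the deposited fold enrichment and −log10 p, which gave whole numbers for 100% of shared peaks within a tolerance of 0.0001. The median was 82 fragments in wide regions of replicate 1 and 88 in replicate 2, against 37 and 39 in narrower peaks, a ratio of 2.24 ± 0.0284. The median local background was 10.7 and 10.3 fragments, against 6.09 and 5.89 (ratio 1.75 ± 0.00853). The median fold enrichment was 7.10 and 7.60, against 5.25 and 5.74 (ratio 1.34 ± 0.0212). The background is estimated from reads around the summit, so the fragments of a wide region enter its own background, and how much they add was not tested. A background at the genome-wide level of the library (3.38 and 3.18 fragments) was found for 1.10% and 1.23% of the wide regions and for 11.6% and 11.3% of the narrower peaks.

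Fold enrichment did not keep rising with width. From the class under 0.25 kb to that of 0.5 to 0.75 kb, the median fold (mean of the libraries) went from 3.95 ± 0.133 to 7.06 ± 0.515. It was 7.60 ± 0.469 at 0.75 to 1 kb, 7.54 ± 0.355 at 1 to 1.25 kb, 7.19 ± 0.254 at 1.25 to 1.5 kb and 6.57 ± 0.556 from 1.5 kb up. Fragments, in contrast, rose through all 7 width classes, from 24 to 97.8, and so did the background, from 4.90 ± 0.253 to 13.3 ± 0.468. Within the wide loci, mean width and mean fragments had a Spearman correlation of 0.37 (n = 1338, both measured on the same reads).

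**Figure D3:**
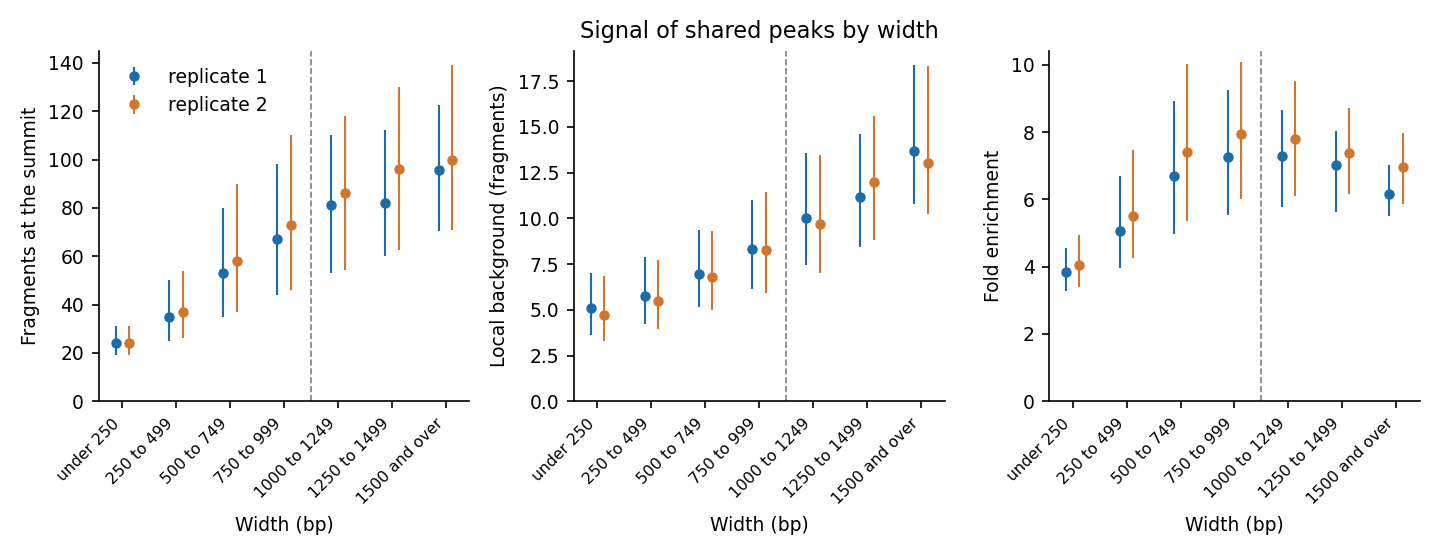
Fragments at the summit, local background (both in fragments) and fold enrichment (vertical axes) of shared peaks in 7 width classes (horizontal axis, bp), with points for the median and bars for the quartiles in each library; the dashed line marks 1000 bp. Fragments and background increase through every class, whereas the fold levels off near 7.6 between 0.75 and 1.25 kb and is 6.57 from 1.5 kb up.

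Wide regions were also placed among the strongest shared peaks. Of the 100 shared peaks with the largest fold in each library, 0 were wide, and their median width was 518 bp in replicate 1 and 515.5 bp in replicate 2. Wide regions were only 3.16% and 3.32% of all shared peaks, so 0 of 100 is close to that share. The highest fold of a wide region was 13.3 and 16.5, against 27.0 and 31.5 for narrower peaks. The narrower peaks are a far larger set (30694 and 30645, against 1002 and 1053), in which a higher maximum is easier to reach. Ranked by fragments, 23 of the top 100 shared peaks were wide in each library, and the most fragments at a wide summit (332 and 395) were close to the most at a narrower one (341 and 389). When shared peaks were divided into 10 equal classes by fragments, the wide share went from 0.473% ± 0.0892 in the lowest class to 13.0% ± 0.536 in the highest. Even so, 9.98% and 12% of the wide regions had fewer fragments than the median narrower peak, and 19.1% and 21.1% had a lower fold.

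The locus with the most fragments lay on scaffold 4 (42368855 to 42369874), with 332 and 395 fragments and a fold of 12.5 in both libraries. At 1004 and 1020 bp it was among the narrowest of the wide loci. It was followed by another locus on scaffold 4 (42625453 to 42626561, 227 and 326 fragments) and by loci on scaffold 12 (273211 to 274342, 227 and 316), scaffold 9 (39222149 to 39223567, 254 and 281) and scaffold 10 (18354991 to 18356054, 220 and 283). The locus on scaffold 12 lay 0.083 Mb outside the edge of the centromere. The locus on scaffold 10 had the highest fold of the 5, at 13.3 and 14.5. All 5 were at least 1000 bp wide in both libraries and covered a single peak of the other library.

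Every one of the 22 scaffolds held wide loci, from 3 on scaffold 20 to 159 on scaffold 2. Per Mb outside the listed centromeres, the densest was scaffold 22, with 40 loci (3.84 per Mb), and the sparsest scaffold 9, with 51 loci (1.29 per Mb). Scaffolds dense in wide regions tended to be dense in peaks. Over the 22 scaffolds, shared peaks per Mb and wide regions per Mb had a Spearman correlation of 0.53. Measured against shared peaks, the wide share had a median of 3.28% over the scaffolds. On scaffold 22 it was 5.32% and 5.84% (5.58% ± 0.367), with exact Clopper-Pearson 95% intervals of 3.67 to 7.43% and 4.10 to 8.03%. On scaffold 9 it was 3.08%, near that median. Scaffold 5 had the lowest share, 2.34% ± 0.294. The highest share, on scaffold 17, rested on 4 wide regions of 48 and 47 shared peaks, and its interval in replicate 2 ran from 2.37 to 20.4%. Intervals from counts cover counting error only, because peaks are not independent molecules.

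**Figure D4:**
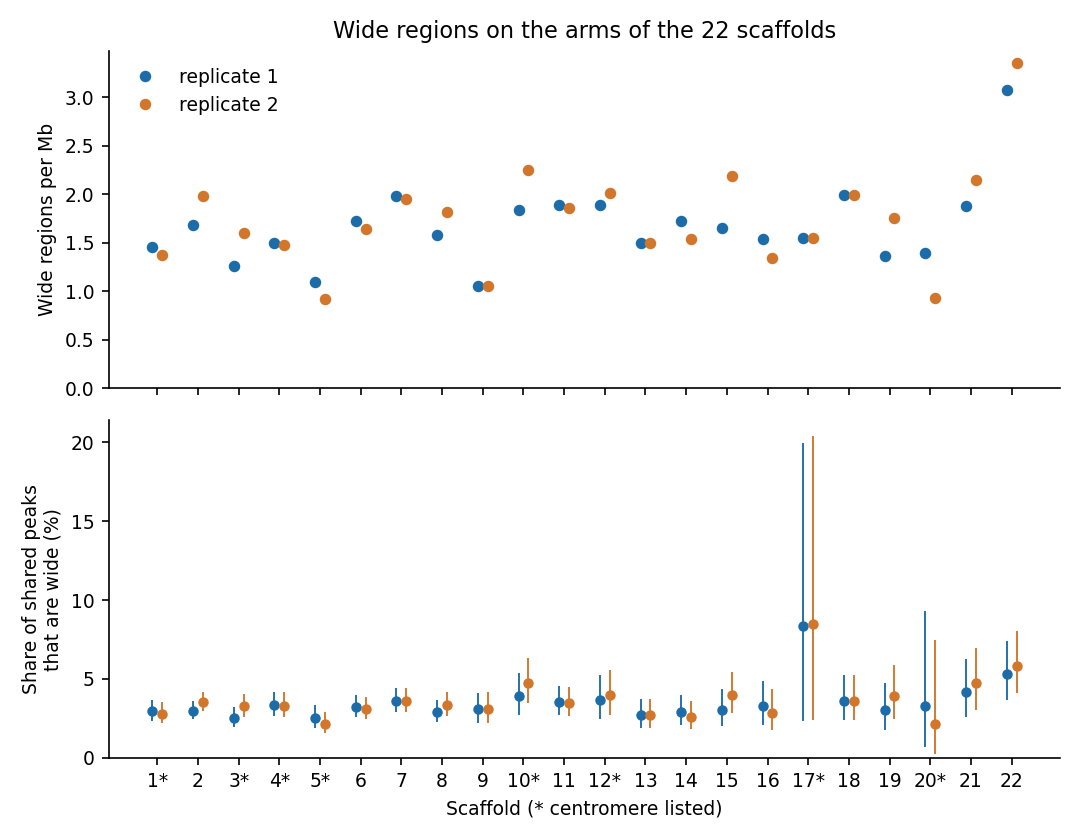
Wide regions per Mb (upper panel) and wide regions as a share of shared peaks (lower panel, %) outside the centromeres of the 22 scaffolds (horizontal axis, an asterisk marks a listed centromere), 1 point per library with 95% Clopper-Pearson bars in the lower panel. Scaffold 22 lies above the others in density in both libraries (3.07 and 3.36 per Mb), and the high share of scaffold 17 has a wide interval.

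Of the 1338 loci, 147 lay on left arms and 296 on right arms of the 8 scaffolds with a listed centromere. The 14 scaffolds without one held 892, and 3 lay inside centromeres. Left and right follow scaffold coordinates, and the arms differ in length and in peaks, so these counts are not rates. Outside centromeres, the 8 scaffolds held 334 wide regions of 11026 shared peaks in replicate 1 and 347 of 11022 in replicate 2. The 14 others held 666 of 20546 (3.24%) and 703 of 20552 (3.42%). Inside the 8 centromeres, 2 of 124 shared peaks were wide in replicate 1 (1.61%, 95% interval 0.196 to 5.70%) and 3 of 124 in replicate 2 (2.42%, 0.502 to 6.91%). On the arms of the same scaffolds the shares were 3.03% (2.72 to 3.37%) and 3.15% (2.83 to 3.49%). The difference was not tested, because each library had under 10 wide regions inside.

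The 3 loci inside centromeres differed from each other. The locus on scaffold 3 (16372315 to 16373963) lay 1.99 Mb inside the nearer centromere edge, was 1649 and 1575 bp wide and held 88 and 105 fragments. Its fold of 12.5 and 13.7 exceeded that of 98.9% and 98.7% of the wide regions, over a background of 6.13 and 6.76 fragments. The locus on scaffold 4 (32616240 to 32617336) was 1095 and 1092 bp wide with 38 fragments in both libraries and a fold of 5.57 and 6.66. The locus on scaffold 12 (7135403 to 7136598) was wide in replicate 2 only (864 and 1196 bp), with 20 and 24 fragments over a background at the genome-wide level.

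Outside the centromeres, 3 comparisons of position were tested over scaffolds, with the libraries averaged, every scaffold weighing the same and Benjamini-Hochberg adjustment over the 3. Within 2 Mb of a centromere edge, the wide share averaged 4.26% over 6 scaffolds (those with at least 20 shared peaks in both parts), against 3.15% on the rest of the same arms. Pooled over the peaks of these scaffolds, it was 3.85% ± 0.446 near and 3.01% ± 0.134 beyond. The difference of 1.10 percentage points (± 0.705 between libraries, SD over scaffolds 2.44) was positive on 3 of 6 scaffolds and did not pass an exact two-sided sign-flip test (p = 0.406, adjusted p = 0.609, smallest possible p = 0.0312). Given the other p-values of the family, even that smallest p would not have passed after adjustment, so the test cannot decide the question. The difference was 0.603 in replicate 2 alone and 1.60 in replicate 1 alone, and 0.319 with near taken as 5 Mb (exact sign-flip p = 0.469). Scaffold 12 carried much of it, with 8.38% near the centromere and 3.15% beyond. Without scaffold 12, an alternative chosen after the data were seen, the difference was 0.276 (exact sign-flip p = 0.812). That test held 5 scaffolds, too few for it to pass. Scaffold 1 followed with 5.51% and 2.76%, whereas scaffold 3 had 1.75% near the centromere and 2.99% beyond.

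The belts by distance from the centromere edge did not hold the same scaffolds. Up to 2 Mb there were 8, with scaffolds 17 and 20 that the test left out, then 7 up to 5 Mb and 6 farther out. Pooled over peaks, 4.0% ± 0.310 of shared peaks were wide in the first 1 Mb and 3.97% ± 0.624 in the next. The wide share was 2.79% ± 0.120 in the belt of 2 to 5 Mb, 3.59% ± 0.414 in that of 5 to 10 Mb, and 2.85% ± 0.0447 past 10 Mb. Per Mb of sequence the order was another one, with 1.31 ± 0.0972 wide regions in the first 1 Mb, 1.57 ± 0.246 in the next, 1.07 ± 0.0471 in the belt of 2 to 5 Mb, 1.59 ± 0.184 in that of 5 to 10 Mb and 1.48 ± 0.0217 past 10 Mb.

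At the scaffold ends, which include breaks of the assembly, the wide share averaged 2.90% over 20 scaffolds in the terminal 1 Mb and 3.47% in the rest. The left arms of scaffolds 10 (0.965 Mb) and 12 (0.357 Mb) lie in this part and also near a centromere. The 2 comparisons therefore share peaks. Pooled over the peaks of these scaffolds, it was 2.97% ± 0.0939 and 3.26% ± 0.126. The difference of −0.57 percentage points (± 0.286 between libraries) was negative on 13 of 20 scaffolds and did not pass the exact two-sided sign-flip test (p = 0.152, adjusted p = 0.457). The difference was −0.77 in replicate 2 alone and −0.37 in replicate 1 alone. By distance from the end, the pooled wide share was 2.64% ± 0.760 in the outermost 0.25 Mb, 2.96% ± 0.173 up to 0.5 Mb, 3.44% ± 0.245 up to 1 Mb, 3.85% ± 0.311 up to 2 Mb, 3.32% ± 0.25 up to 5 Mb and 3.19% ± 0.0755 farther in. Scaffolds with a listed centromere had a wide share of 3.84% on average and those without one 3.49%, both outside centromeres. The difference of 0.350 percentage points (± 0.127 between libraries, 8 against 14 scaffolds) did not pass an exact two-sided permutation test (p = 0.634, adjusted p = 0.634). It rested on scaffold 17, with its few peaks. Without scaffold 17, an alternative also chosen after the data were seen, the other 7 scaffolds with a centromere averaged 3.19% and the difference was −0.30 (exact permutation p = 0.394). With only scaffolds of at least 20 Mb it was 0.117 (exact permutation p = 0.691). Pooled over peaks, the share was 3.09% ± 0.0842 on scaffolds with a centromere and 3.33% ± 0.127 on those without.

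Wide loci were few, and their spacing was not compared with a random placement. The 1335 loci outside centromeres formed 1306 neighbouring pairs with a median gap of 280 kb (quartiles 106 and 600 kb, mean 449 kb). Gaps of 10 kb or less separated 32 pairs (2.45%) and gaps of 100 kb or less 311 pairs (23.8%). The closest pair lay on scaffold 19 (10199042 to 10200057 and 10200342 to 10201381), 0.284 kb apart. Both its loci were wide in replicate 2 only, with 964 and 637 bp in replicate 1. The farthest pair bounded 7.995 Mb of scaffold 9 (9077882 to 17073043), a stretch in which each library had 76 shared peaks. Elsewhere the largest gap was 4.034 Mb on scaffold 4 (36508274 to 40542718), with 61 shared peaks in each library.

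In 611 full windows of 1 Mb outside centromeres, the number of wide loci had a median of 2, and 100 windows (16.4%) had 0. The variance of the count was 1.32 times its mean. The window with most loci, 10, was on scaffold 2 (57000001 to 58000000), where each library had 88 shared peaks of which 8 were wide. Windows with 9 loci followed on scaffold 7 (15000001 to 16000000) and scaffold 11 (12000001 to 13000000). Windows rich in peaks had more wide regions (Spearman correlation 0.40 and 0.39 over 611 windows, which share libraries and depth). In windows ranked into 4 classes by shared peaks, however, the wide share was 2.87% ± 0.121 in the poorest, then 3.49% ± 0.383 and 3.19% ± 0.0753, and 3.34% ± 0.0603 in the richest, with no steady rise.

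Wide regions had fewer close neighbours than narrower peaks. Their median gap to the nearest shared peak outside centromeres was 6.21 kb in replicate 1 and 6.53 kb in replicate 2, against 4.97 and 4.95 kb for narrower peaks. A shared peak lay within 1 kb of 11.3% and 10.5% of the wide regions and of 18.0% of the narrower peaks in both libraries. Peaks of 0.75 to 1 kb were intermediate in this share (12.5% and 13.4%), and their median gaps were 6.21 and 6.01 kb. No shared peak lay within 10 kb of 30.1% and 32.5% of the wide regions, or of 27.3% and 27.2% of the narrower peaks. For peaks of 0.75 to 1 kb this share was 30.8% and 30.5%, so at this distance it was not particular to wide regions. The measure is tied to the rule, since neighbouring openings that are joined into 1 wide call no longer count as neighbours.

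**Figure D5:**
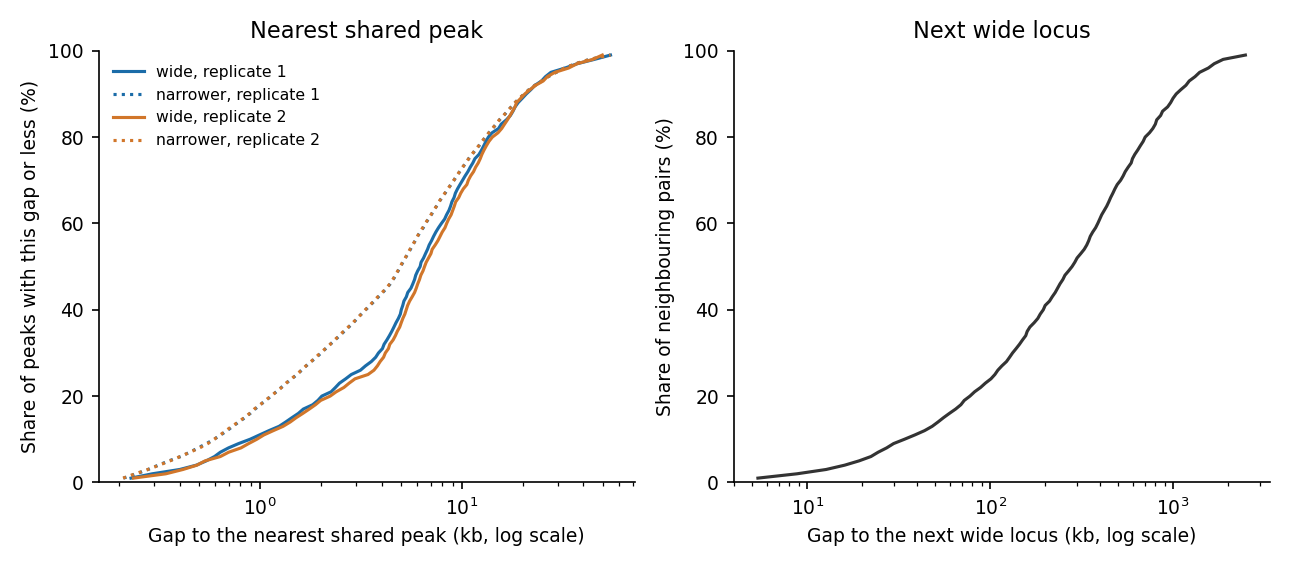
Cumulative share (vertical axes, %) of wide and narrower peaks by the gap to the nearest shared peak (left, kb, log scale) and of neighbouring wide loci by the gap between them (right, kb, log scale), outside centromeres. The 2 dotted lines of narrower peaks coincide; at 1 kb they stand at 18.0% and the lines of wide regions at 11.3% and 10.5%, and above 10 kb all lines draw together.

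The loci of 2 genes for chromosome segregation, KNL1 and SURVIVIN, had no wide locus within 2 kb. They were the only kinetochore genes with scaffold positions in the study's list. Neighbouring wide loci lay a mean of 449 kb apart, and 3.16% and 3.32% of shared peaks were wide. A lack of wide loci near 2 genes is therefore no trait of these genes. KNL1, which encodes an outer kinetochore protein, is on scaffold 5 (32785769 to 32848252), and the nearest wide locus was 58.8 kb away (32907034 to 32908260). SURVIVIN, named after a subunit of the chromosomal passenger complex, is on scaffold 10 (19259032 to 19260258), and the nearest wide locus was 8.01 kb away (19249953 to 19251026). Within 2 kb of KNL1 there were 3 peaks in replicate 1 and 2 in replicate 2, the widest of 388 and 542 bp. Within 2 kb of SURVIVIN each library had 1 peak, of 722 and 663 bp.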

How the data were processed

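Nuclei from fresh leaves were treated with the Tn5 enzyme and sequenced in paired-end mode (151 cycles per end). According to the study's methods, the authors trimmed adapters with fastp 0.20.0, aligned with BWA-MEM 0.7.17, used SAMtools 1.16.1 to discard duplicates and reads under a mapping quality of 30, multi-mapping ones among them, and called peaks in each library with MACS 3.0.0 at a q-value of 0.01. Not given in the sources used here were the genome size, any shift or extension of reads, a control and an organelle filter. The read depth of the libraries is unknown from the files. The deposited peak lists hold interval and summit positions, a peak score, the fold enrichment at the summit (the ratio of fragments to the local background with 1 added to both) and −log10 of the p-value and q-value, all as the authors deposited them from MACS. The peak score was not used.

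Intervals of at least 1000 bp on the 22 scaffolds that overlapped a peak of the other library by at least 1 bp were kept. Fragments at the summit and the local background were solved from the fold and −log10 p under the Poisson model of MACS. The step was tested on data simulated with the same formulas, which checks the solving and not the model. Centromere and gene positions came from the study's lists, and positions refer to its own assembly. Summaries used Python 3.11.15 with numpy 2.4.6, pandas 2.3.3 and scipy 1.17.1, and figures matplotlib 3.10.9. Values are per library with mean ± SD. Position was tested over scaffolds, exactly, with 20 shared peaks as the minimum per part. Regions named in the text are the 5 widest loci, the 5 with most fragments, 2 intervals on each side of 1000 bp per library, the closest and farthest neighbours, the loci inside centromeres, the scaffolds of extreme locus density and loci within 2 kb of 2 genes; other ones named are extremes of a count or are said to be chosen after their values were seen. Alternatives changed the width and q thresholds, the overlap, the distances and the libraries. The members, lists and tests were chosen with earlier results of these data known. Peaks beyond the 22 scaffolds were left out because they have no place on an arm.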

Additional observations from a re-analysis of the deposited data

Results flagged for a closer look

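Beyond the 22 scaffolds, in sequences that no comparison used, 40 of 643 peaks of replicate 1 (6.22%) and 38 of 678 peaks of replicate 2 (5.6%) were at least 1000 bp wide. No overlap was required for these. On the 22 scaffolds, 1003 of 38590 peaks in replicate 1 and 1055 of 40707 in replicate 2 were as wide without that requirement. The wide intervals beyond the 22 scaffolds came up as a signal outside the main measurement, in a design with no control library. The widest of them measured 3923 and 3924 bp, above the widest on the 22 scaffolds (2464 and 2275 bp). Their median local background was 220 and 73.6 fragments, against 10.7 and 10.3 for wide regions on the scaffolds. The part that repeated or organellar sequence has in them was not tested.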

How the results depend on the processing

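Of 83 alternatives run, 51 kept the reported result and 28 moved a value. A test was judged by its direction and its side of the threshold, and other values by the SD between libraries. The numbers of regions and loci were judged by a wider range. Leaving out 1 library cannot move a mean of the 2 libraries beyond their SD, so those alternatives are no check of such values. Taking the midpoint as the position repeated the main result near centromeres. None of the 26 position tests run under alternatives passed, the smallest exact permutation p being 0.0665. In 4 of the 26 the direction turned. Near centromeres the difference was −0.10 with near taken as 1 Mb (exact sign-flip p = 0.977). That run held all 8 scaffolds with a listed centromere instead of 6, so the set of scaffolds changed too. For terminal parts of 2 Mb the difference was 0.0706 (exact sign-flip p = 0.849). Between scaffolds with and without a centromere it was −0.17 at a width of 0.8 kb (exact permutation p = 0.783) and −0.30 without scaffold 17 (exact permutation p = 0.394). With the width limit at 0.8 and 1.25 kb, in that order, there were 3604 and 390 loci, 2803 and 298 regions per library, a wide share of 8.84% and 0.940%, a fragment ratio of 2.09 and 2.37, a median gap of 101 and 976 kb, a summit offset of 36.8% and 46.5%, 6.17% and 12.8% of regions over several peaks, and a wide share inside centromeres of 4.44% and 0.806%. With only peaks of −log10 q of at least 5, the wide share was 3.66%, the fragment ratio 2.02, regions over several peaks 8.12% and the share inside centromeres 2.87%. With an overlap of at least 50% of both peaks, recurrence was 76.0%, the fragment ratio 2.17, the median gap 326 kb, the summit offset 40.8% and regions over several peaks 0%, which this overlap fixes by construction. With centromere edges moved inward by 0.5 Mb, the share inside was 2.72%. With 1 library left out, the median gap ran from 347 to 369 kb, fewer loci being joined. No paired analysis was possible because the 2 libraries belong to 1 group. With 2 libraries and unknown read depth, small differences between width classes cannot be resolved.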
